A study of Mus musculus with 6 samples.

Results

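The genes described here encode the neurotransmitter-gated ion channels, the receptors that open an ion pore when glutamate, GABA, glycine, acetylcholine, ATP or serotonin binds. They were chosen by gene symbol among protein-coding genes, and 65 of the 47643 gene identifiers counted met the rule. By transmitter they were 4 AMPA, 7 NMDA and 5 kainate receptor genes for glutamate, 19 GABA-A and 5 glycine receptor genes, 16 nicotinic acetylcholine receptor genes, 7 P2X receptor genes for ATP and 2 5-HT3 receptor genes for serotonin. RNA was sequenced from dorsal root ganglia, the clusters of sensory neurons beside the spinal cord, taken from CD-1 mice at embryonic day 13. The 3 shUHRF1 libraries came from cells given a lentivirus carrying a hairpin against Uhrf1, and the 3 shControl libraries from cells given a lentivirus carrying a control hairpin. Per the series' design text the neurons of both groups were uninjured. The labels do not say whether libraries of a group came from separate cultures, so p-values cover the spread between libraries alone, which may be technical.

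Each channel is built of several subunits, and the subunits chosen set its transmitter sensitivity, its kinetics and which ions pass. Glutamate, nicotinic, P2X and 5-HT3 receptors conduct cations and depolarise the cell, whereas GABA-A and glycine receptors conduct chloride. Sensory neurons carry many of them on their endings and central terminals. P2X receptors with the P2rx3 subunit, which report ATP released by damaged tissue, are known from nociceptors, and GABA-A receptors on the central terminals take part in presynaptic inhibition. UHRF1 binds hemimethylated CG dinucleotides and recruits the maintenance DNA methyltransferase.

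The libraries held 15599776 to 22382813 reads in genes, of which 32891 to 43884 fell in the channel genes. Uhrf1 had 2, 1 and 5 reads in shUHRF1 libraries 1 to 3, against 8, 6 and 5 reads in shControl libraries 1 to 3. It was under the low-count filter, and with the gene kept its log2 fold change was -1.39 ± 0.62 SE (edgeR adjusted p = 0.141), so a lower level was not resolved at this depth. Of 20 neuronal markers 19 were matched and tested, with 1 higher (Ret), 1 lower (Tubb3) and summed levels of 22236 to 28119 counts scaled by library size (CPM) in shUHRF1 and 26653 to 32045 CPM in shControl. Among the tested markers of other cells, 8 of 11 glial markers (median log2 fold change 2.83) and 9 of 10 fibroblast markers (median 3.51) rose, and 1 glial marker, Mbp, fell. The sums over whole lists overlapped, at 126.9 to 554.3 CPM in shUHRF1 and 448.9 to 548.4 CPM in shControl for glia, and 186.7 to 386.8 CPM in shUHRF1 and 250.2 to 402 CPM in shControl for fibroblasts. A few abundant genes carried these sums. Without S100b, Mbp and Pmp22, left out after their values were seen, the glial markers summed to 31.6, 85.6 and 65.1 CPM in shUHRF1 libraries 1 to 3, against 7.31, 15.6 and 8.7 CPM in shControl libraries 1 to 3. Without Thy1, likewise left out, the fibroblast markers summed to 74, 132.9 and 173.4 CPM in shUHRF1, against 8.07, 7.44 and 10 CPM in shControl. The groups were then far apart. The choice favoured this, as the genes left out had negative log2 fold changes (S100b -0.54, Mbp -0.95, Pmp22 -1.06, Thy1 -0.82). Gfra3 held much of the glial sum that was left, at 11.7, 66.3 and 34.9 CPM in shUHRF1 libraries 1 to 3. In shControl libraries 1 to 3 Gfra3 had 4.7, 12.6 and 5.93 CPM. Which cells the RNA of Gfra3, Thy1, S100b, Mbp and Pmp22 came from was not tested, and neurons may be among them. Macrophage markers rose for 5 of 9 tested, and their sums, 18.8 to 49.4 CPM in shUHRF1 and 7.32 to 14.2 CPM in shControl, did not overlap. Of 7 tested endothelial and mural markers 2 rose. Of the matched markers 0 were without reads in all libraries. Fewer cells of a type and less RNA per cell cannot be told apart in such bulk libraries, and the part of these other cells in the results below was not tested.

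Of the 65 channel genes, 46 passed the filter on low counts and entered the test across all genes. With shUHRF1 over shControl, 7 rose, 6 fell and 33 did not pass an adjusted p of 0.05 (edgeR quasi-likelihood test, Benjamini-Hochberg over 15573 genes). The shares, 15.2% higher and 13% lower, lay near those of all tested genes, of which 11.6% rose and 12.4% fell (24% in all). With upper-quartile factors 9 channel genes rose and 4 fell, and 3890 of the 15573 genes were called. The number that fell was 2 without shControl replicate 3, and 3 without shControl replicate 1 or shUHRF1 replicate 3. The levels of the groups did not overlap for 11 channel genes that were higher in shUHRF1 and for 10 that were lower, 23.9% and 21.7% of those tested. Over all tested genes these shares were 21.7% and 22.3%, or 44% in both directions. The class as a whole thus lay near the background, and what follows concerns single subunits. Those that rose were Glra2, Grik2, P2rx6, Chrna4, Grin2d, P2rx4 and Chrnb2, and those that fell included Gria4, Gabra5, Gabrb2, Grin3a and Gabra2. Of 12 tested GABA-A genes 4 were called, all lower, beside the 12.4% lower over all tested genes. Of 10 tested nicotinic genes 2 were called and of 5 tested P2X genes 2, all higher, beside the 11.6% higher over all tested genes. With upper-quartile factors Gabra2 and Gabra5 lost the call. The median log2 fold change of the tested channel genes was 0.31, against 0.017 over all tested genes. A gene near the filter passes through the group where it is high, so this median is only a description.

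**Figure D1:**
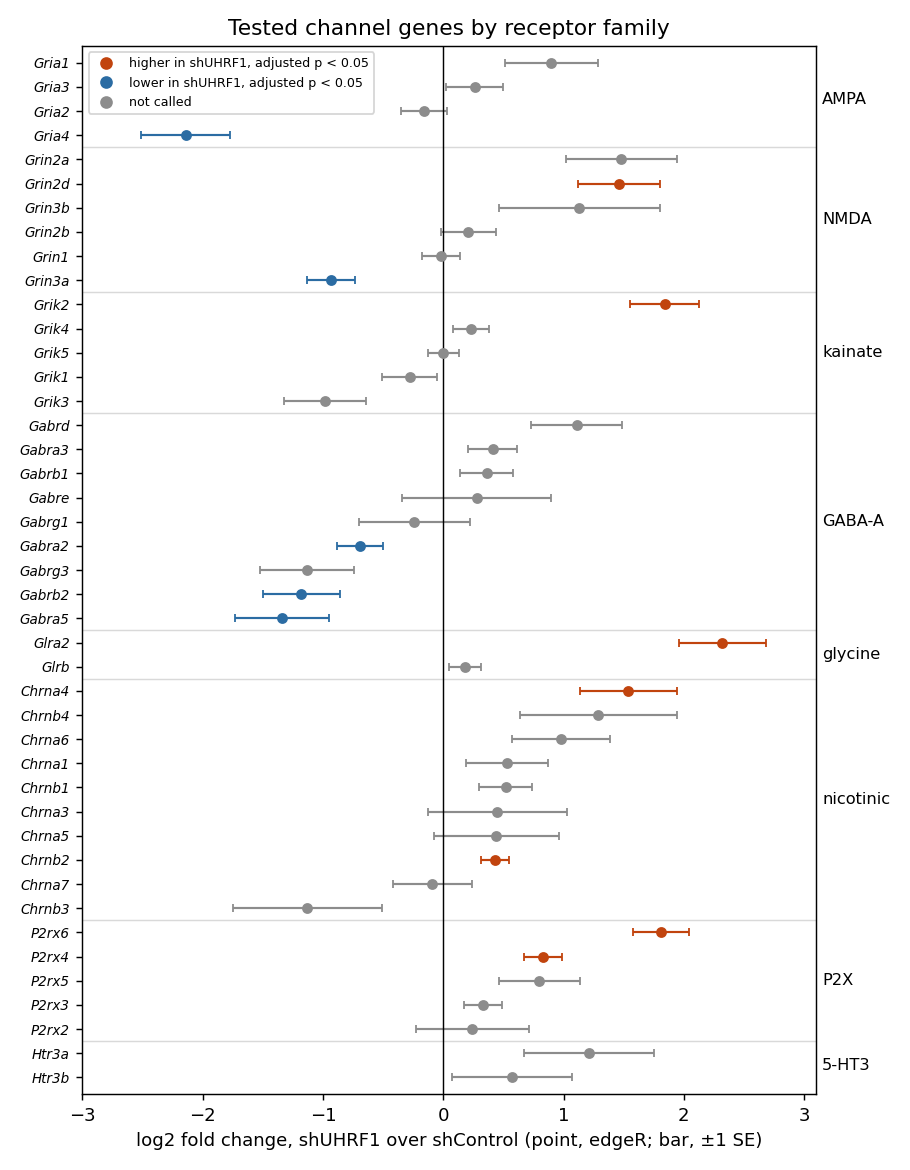
Log2 fold change of tested channel genes, shUHRF1 over shControl (x axis), grouped by receptor family and sorted within it; points are edgeR estimates, bars 1 SE, orange points genes called higher, blue points genes called lower and grey points genes not called. The called values run from -2.14 for Gria4 to 2.32 for Glra2, and most families hold values on both sides of 0.

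The calls differed in whether they held with 1 library left out. Such fits have fewer libraries, and over all tested genes they gave 1768 to 3888 calls, against 3735. A lost call thus does not show by itself that the difference rested on the library left out. For Chrnb2 the log2 fold change stayed at 0.37 to 0.5 in these fits, against 0.43 with all libraries. Gria4, Glra2, Grik2, P2rx6 and P2rx4 passed in every fit with any 1 of the 6 libraries left out. Chrna4, Chrnb2, Grin2d, Grin3a, Gabra2, Gabra5 and Gabrb2 each lost the call in at least 1 of these fits. Upstream sequences of the 5 genes that kept it are shown because UHRF1 acts at CG dinucleotides. Each line gives the 250 bases before the annotated start, read 5′ to 3′ on the strand of the gene, from RefSeq on GRCm38.p6, and capitals mark each CG.
Gria4, chr9:4796235-4796484, minus strand: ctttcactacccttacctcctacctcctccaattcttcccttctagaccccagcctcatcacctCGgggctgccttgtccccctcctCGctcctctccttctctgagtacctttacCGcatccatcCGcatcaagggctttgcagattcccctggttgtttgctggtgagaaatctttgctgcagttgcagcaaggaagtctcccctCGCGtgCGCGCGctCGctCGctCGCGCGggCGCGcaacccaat
Glra2, chrX:165327394-165327643, minus strand: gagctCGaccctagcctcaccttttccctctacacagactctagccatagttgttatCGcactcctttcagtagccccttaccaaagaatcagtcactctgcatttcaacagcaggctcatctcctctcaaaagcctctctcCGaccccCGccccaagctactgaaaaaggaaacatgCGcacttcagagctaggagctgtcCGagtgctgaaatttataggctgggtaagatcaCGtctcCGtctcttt
Grik2, chr10:49788755-49789004, minus strand: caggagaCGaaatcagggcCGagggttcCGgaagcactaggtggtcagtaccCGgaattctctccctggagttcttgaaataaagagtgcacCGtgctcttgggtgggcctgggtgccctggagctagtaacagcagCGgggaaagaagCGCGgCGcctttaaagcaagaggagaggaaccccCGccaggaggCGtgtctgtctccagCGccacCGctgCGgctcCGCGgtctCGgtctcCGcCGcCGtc
P2rx6, chr16:17561635-17561884, plus strand: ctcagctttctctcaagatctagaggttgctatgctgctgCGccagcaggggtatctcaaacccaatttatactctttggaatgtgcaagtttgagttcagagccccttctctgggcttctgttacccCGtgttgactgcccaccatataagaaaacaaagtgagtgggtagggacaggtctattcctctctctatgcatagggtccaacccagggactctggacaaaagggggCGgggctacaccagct
P2rx4, chr5:122707294-122707543, plus strand: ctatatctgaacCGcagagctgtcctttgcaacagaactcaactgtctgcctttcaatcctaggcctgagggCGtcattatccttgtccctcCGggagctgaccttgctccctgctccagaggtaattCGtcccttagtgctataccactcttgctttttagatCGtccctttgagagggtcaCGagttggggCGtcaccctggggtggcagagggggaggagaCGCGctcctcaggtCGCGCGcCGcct
The windows hold 16 CG dinucleotides in Gria4, 8 in Glra2, 20 in Grik2, 3 in P2rx6 and 13 in P2rx4. Among these, the genes that rose thus ran from 3 to 20. CG reads the same on both strands, and 92.1% of the 32851 RefSeq windows of this length hold at least 1, with a median of 6 and quartiles of 2 and 16. Of the channel genes 46 had a window, 52 windows in all. The median was 10 CG in the windows of the genes called higher (7 windows), 8.5 in those called lower (6 windows) and 11 in those tested and not called (22 windows). DNA methylation was not measured in these libraries.

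**Figure D2:**
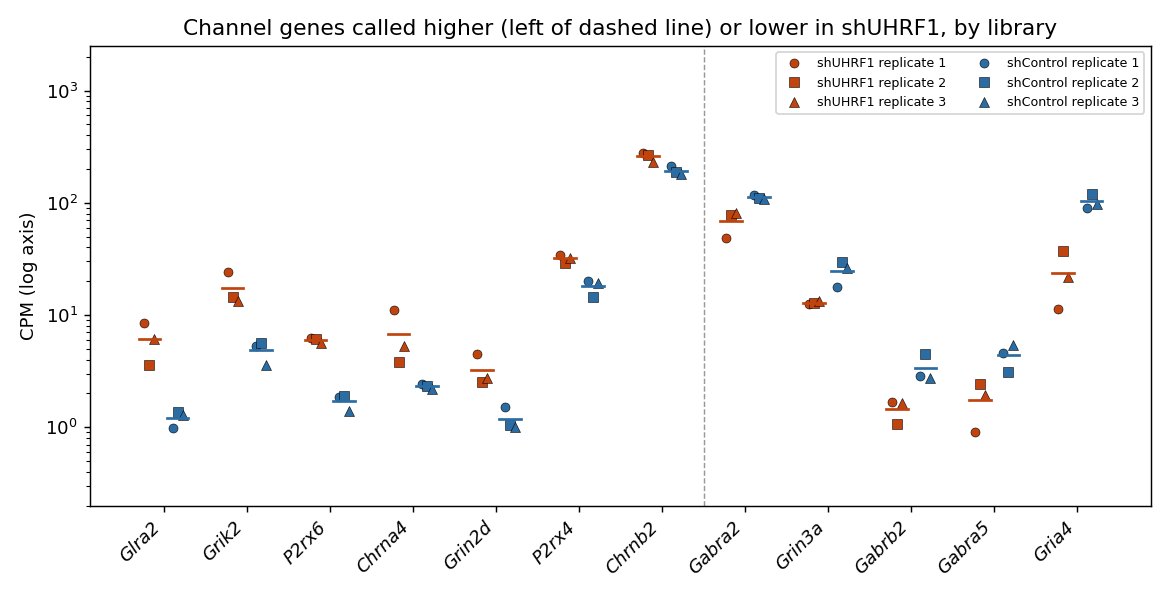
CPM (log axis) of called channel genes in each of the 6 libraries; orange symbols are shUHRF1 and blue symbols shControl, their shape gives the replicate number and the short lines the group means. For every gene shown, the 3 shUHRF1 values lie on one side of the 3 shControl values. The genes were chosen by the test on these same libraries, so this adds no separate evidence.

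AMPA receptors carry most fast glutamate transmission, and their 4 subunits are encoded by Gria1 to Gria4. Gria4 (ENSMUSG00000025892.15, chromosome 9, 4417896 to 4796234, minus strand, GRCm38) had the lowest log2 fold change of the channel genes tested. Its level was 11.4, 37.3 and 21.9 CPM in shUHRF1 libraries 1 to 3, against 89.9, 120.8 and 98.2 CPM in shControl libraries 1 to 3. The groups stood far apart, and within shUHRF1 replicate 1 was the lowest. On average it was 4.4-fold lower (log2 fold change -2.14 ± 0.37 SE, edgeR adjusted p = 0.00667). Gria2, whose RNA-edited subunit makes the channel impermeable to calcium, had 157.3, 205.4 and 144 CPM in shUHRF1 and 185.4, 231.2 and 151.5 CPM in shControl, with overlapping groups (log2 fold change -0.16 ± 0.19 SE, adjusted p = 0.577). Gria3 averaged 27.4 ± 7.05 CPM in shUHRF1 and 22.9 ± 6.24 CPM in shControl (SD, n = 3 each) and was not called (edgeR adjusted p = 0.485). Gria1, a subunit known for activity-dependent delivery to synapses, had 29.8, 15.3 and 16.8 CPM in shUHRF1 and 16.4, 5.76 and 11 CPM in shControl. It did not pass either (log2 fold change 0.90 ± 0.39 SE, adjusted p = 0.134), but did with the replicate number as a block (0.94 ± 0.18 SE, adjusted p = 0.0101).

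As CPM per kilobase of exon (RPKM), the AMPA genes summed to 20.8 ± 3.93 RPKM in shUHRF1 and 32.7 ± 4.74 RPKM in shControl (SD, n = 3 each). The libraries did not overlap, at 17.6 to 25.2 RPKM in shUHRF1 and 29.1 to 38 RPKM in shControl. Gria4 made up 9.22%, 23.5% and 19.7% of this sum in shUHRF1 libraries 1 to 3, against 46.2%, 50.4% and 53.6% in shControl libraries 1 to 3. Per kilobase the leading subunit thereby differed. Gria4 held the largest share in each shControl library and Gria2, at 51.8% to 52.6%, in each shUHRF1 library. Gria2 held 33.5% to 39.1% in shControl. In CPM, not divided by exon length, Gria2 was above Gria4 in every library of both groups, so the switch rests on the exon lengths used. Exon length here is the union of all annotated isoforms, so a gene whose long isoforms are not used, as may apply to the 15548 bases of Gria2, has its level per kilobase understated. Shares and sums are descriptions and were not tested.

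NMDA receptors need glutamate together with glycine or D-serine, and depolarisation, to open. Grin1, the obligatory subunit, averaged 65.6 ± 6.44 CPM in shUHRF1 and 66.6 ± 12.3 CPM in shControl (SD, n = 3 each; log2 fold change -0.02 ± 0.16 SE, edgeR adjusted p = 0.932), and its sign changed with the scaling. Among the glutamate-binding subunits, Grin2b, the main embryonic one, had 37.7, 34.9 and 40.6 CPM in shUHRF1 and 25, 46.3 and 27.1 CPM in shControl. Its groups overlapped through shControl replicate 2 (adjusted p = 0.564), and without that library the log2 fold change was 0.52 (adjusted p = 0.0446). Grin2d, a subunit of slowly decaying receptors, rose to 4.45, 2.53 and 2.76 CPM in shUHRF1, against 1.51, 1.04 and 1 CPM in shControl. The groups did not overlap, and the level was 2.75-fold higher (log2 fold change 1.46 ± 0.34 SE, edgeR adjusted p = 0.0181), a call lost without shControl replicate 2 or 3 (adjusted p = 0.0587 to 0.0825). Grin2a, which is added to receptors after birth in the brain, had 2.6, 1.94 and 2.28 CPM in shUHRF1 and 0.465, 1.49 and 0.526 CPM in shControl. It stood just outside the threshold (log2 fold change 1.48 ± 0.46 SE, adjusted p = 0.0507) and passed with the replicate block (adjusted p = 0.0335).

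Grin3a and Grin3b encode the glycine-binding subunits that lower calcium entry. Grin3a fell to 12.5, 12.8 and 13.2 CPM in shUHRF1, against 17.8, 29.9 and 26 CPM in shControl. The shUHRF1 libraries were nearly equal and all below the lowest shControl library (1.91-fold lower, log2 fold change -0.93 ± 0.20 SE, edgeR adjusted p = 0.0133). This call was lost without shControl replicate 3 (adjusted p = 0.0544) and on the library pairs numbered 1 and 3 alone (adjusted p = 0.0649). Grin3b, with 63, 7 and 18 reads in shUHRF1 and 8, 11 and 15 reads in shControl, was not called (adjusted p = 0.258 in edgeR), and 32.13% of its exon length is shared with Tmem259 on the opposite strand. The summed level of the NMDA genes was 9.65 to 11 RPKM in shUHRF1 and 10.3 to 10.9 RPKM in shControl. Within this level Grin3a made up 9.26% to 11.1% in shUHRF1 and 13.3% to 23.7% in shControl.

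Kainate receptors are built from Grik1, Grik2 or Grik3 subunits, with which Grik4 or Grik5 can assemble. Grik2 rose to 24, 14.5 and 13.3 CPM in shUHRF1, against 5.28, 5.63 and 3.59 CPM in shControl. Every shUHRF1 library was above every shControl library, replicate 1 the most, and the level was 3.59-fold higher (log2 fold change 1.84 ± 0.29 SE, edgeR adjusted p = 0.00427). Grik1, the kainate subunit best known from sensory neurons, averaged 10.4 ± 2.81 CPM in shUHRF1 and 12.7 ± 2.24 CPM in shControl (SD, n = 3 each; adjusted p = 0.422). Grik3 had 9.43, 16.8 and 11.2 CPM in shUHRF1 and 17.6, 37.7 and 18.5 CPM in shControl. These groups did not overlap, yet the test did not pass (log2 fold change -0.98 ± 0.34 SE, edgeR adjusted p = 0.0721), while with the replicate block it did (adjusted p = 0.00451). Both libraries numbered 2 were the highest of their group for Grik3. The abundant members were not called. Grik5 averaged 96.1 ± 8.96 CPM in shUHRF1 and 96 ± 11.4 CPM in shControl (SD, n = 3 each; edgeR adjusted p = 0.998), and its sign changed with the filter. Grik4 averaged 74.8 ± 3.54 CPM in shUHRF1 and 63.7 ± 11.7 CPM in shControl (edgeR adjusted p = 0.299). Per kilobase, Grik5 and Grik4 together dominated in every library, with Grik5 alone at 51.6% to 53.8% in shUHRF1 and 52.6% to 56.7% in shControl.

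**Figure D3:**
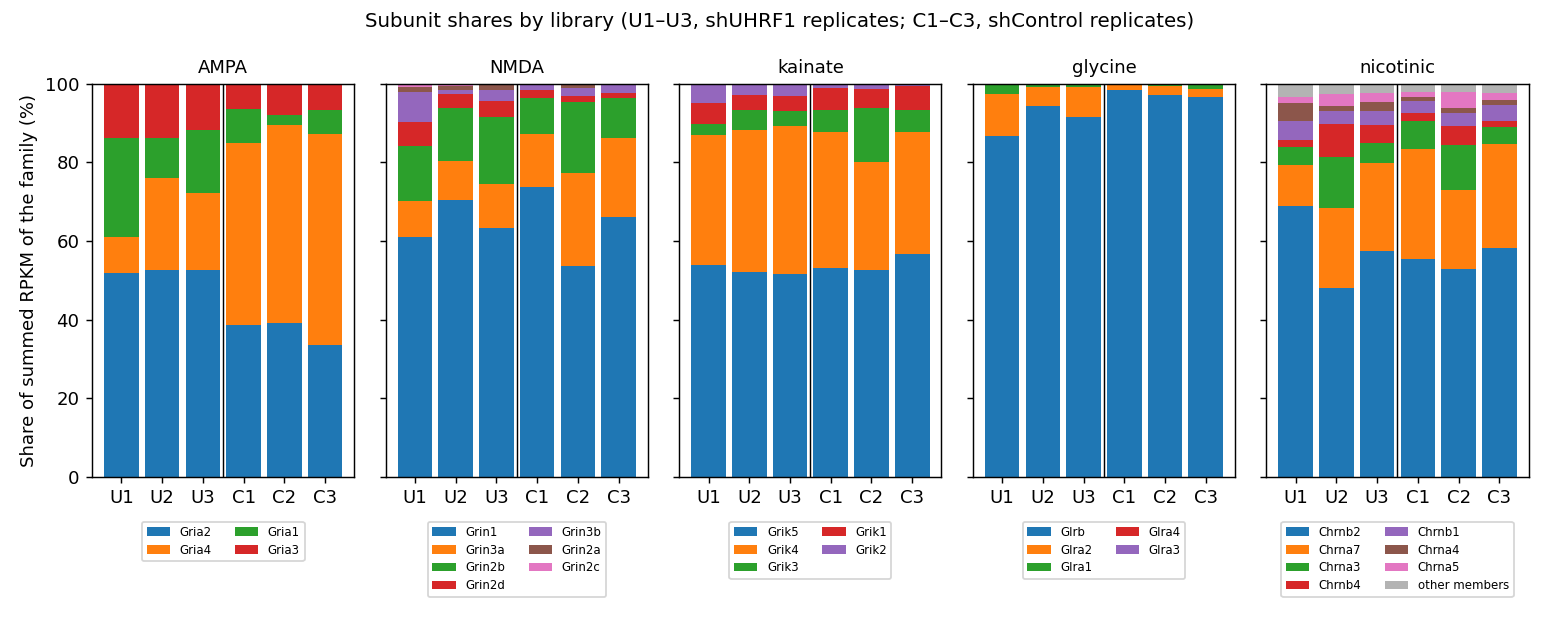
Share of each subunit in the summed RPKM of its receptor family (y axis, percent), stacked for each library, with the shUHRF1 libraries (U1 to U3) left of the shControl libraries (C1 to C3). In the AMPA panel Gria4 takes 9.22% to 23.5% in shUHRF1 and 46.2% to 53.6% in shControl, while the kainate panel keeps Grik5 as its leading subunit in all libraries.

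GABA-A receptors are chloride channels, typically of alpha, beta and gamma subunits. Gabra2, an alpha subunit of synaptic receptors, fell to 48.2, 78.1 and 81.4 CPM in shUHRF1, against 117.4, 110.7 and 107.4 CPM in shControl (1.62-fold lower, log2 fold change -0.69 ± 0.19 SE, edgeR adjusted p = 0.0353). All shUHRF1 libraries were below the shControl ones, replicate 1 the most. The call was lost without shUHRF1 replicate 3 and without each of the 3 shControl libraries (adjusted p = 0.0502 to 0.101), with upper-quartile factors (0.0644) and on the pairs numbered 1 and 3 (0.0745).

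Gabra5 and Gabrb2 were fainter than Gabra2 and fell by more, while Gabrd, Gabre and Gabrg1, also faint, were not called. Gabra5, an alpha subunit found mostly outside synapses, fell to 0.898, 2.41 and 1.94 CPM in shUHRF1, against 4.59, 3.11 and 5.45 CPM in shControl (log2 fold change -1.34 ± 0.39 SE, edgeR adjusted p = 0.0426). Without shControl replicate 1 or 3 or shUHRF1 replicate 1 or 3 it did not pass (adjusted p = 0.059 to 0.147), nor with upper-quartile factors. Gabrb2, a beta subunit common in the adult brain, fell to 1.66, 1.06 and 1.65 CPM in shUHRF1, against 2.85, 4.47 and 2.73 CPM in shControl (log2 fold change -1.18 ± 0.32 SE, edgeR adjusted p = 0.0326). It passed only without shUHRF1 replicate 1 among the 6 fits that left out a library (the other 5 gave adjusted p = 0.0631 to 0.0946), and its log2 fold change on the pairs numbered 1 and 3 was -0.76 (adjusted p = 0.138).

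Gabrg3, a gamma subunit, had 6.33, 20 and 18.9 CPM in shUHRF1 and 31.6, 40.8 and 26.2 CPM in shControl. The groups did not overlap, and the adjusted p was 0.0713 in edgeR (log2 fold change -1.13 ± 0.39 SE) and 0.0269 with the replicate block. In the other direction Gabrd, the subunit of tonic currents, had 18, 14 and 21 reads in shUHRF1 and 8, 4 and 10 reads in shControl (adjusted p = 0.0682). Gabra3 averaged 19.1 ± 2.63 CPM in shUHRF1 and 14.4 ± 3.32 CPM in shControl, and Gabrb1 averaged 8.13 ± 0.86 CPM in shUHRF1 and 6.32 ± 1.45 CPM in shControl (SD, n = 3 each; edgeR adjusted p = 0.173 and 0.272). Gabrg1 and Gabre, at 2.58 and 0.512 CPM in shUHRF1 and 3.05 and 0.421 CPM in shControl on average, overlapped between the groups. Of the 12 tested GABA-A genes 7 were lower without overlap, 1 was higher without overlap and 4 overlapped, beside 22.3% lower and 21.7% higher without overlap over all tested genes. The summed level of the family was 59.5, 75.2 and 71.8 RPKM in shUHRF1 and 86.7, 85.1 and 82.3 RPKM in shControl. The libraries of the groups did not overlap. Gabra2 made up 10.6%, 13.6% and 14.8% of it in shUHRF1, against 17.7%, 17% and 17.1% in shControl, and Gabra3 8.99%, 5.47% and 7.22% in shUHRF1, against 5.34%, 3.55% and 4.1% in shControl.

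Glycine receptors combine an alpha subunit, which binds glycine, with the beta subunit Glrb, which ties the receptor to gephyrin. Glra2, the alpha subunit of embryonic neurons (ENSMUSG00000018589.8, chromosome X, 165129017 to 165327393, minus strand, GRCm38), had the highest log2 fold change of the tested channel genes. It had 190, 61 and 125 reads in shUHRF1 libraries 1 to 3, against 17, 21 and 27 reads in shControl libraries 1 to 3, or 8.53, 3.59 and 6.05 CPM in shUHRF1 and 0.987, 1.36 and 1.29 CPM in shControl. The lowest shUHRF1 library was above every shControl library, and the level was 4.99-fold higher (log2 fold change 2.32 ± 0.36 SE, edgeR adjusted p = 0.00431). Glrb was far more abundant and had 103, 104.8 and 108.4 CPM in shUHRF1 and 109.5, 84.4 and 84.9 CPM in shControl, with overlapping groups (log2 fold change 0.18 ± 0.13 SE, adjusted p = 0.349). Per kilobase, Glra2 made up 10.6%, 4.78% and 7.55% of the glycine receptor sum in shUHRF1, against 1.31%, 2.31% and 2.17% in shControl, and Glrb nearly all of the rest.

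Nicotinic receptors are cation channels opened by acetylcholine. Chrnb2, the beta subunit of high-affinity neuronal receptors, was the most abundant per kilobase and rose to 280.4, 267.3 and 232.1 CPM in shUHRF1, against 211, 186.5 and 180.6 CPM in shControl. The groups did not overlap, and the difference was small (1.35-fold higher, log2 fold change 0.43 ± 0.12 SE, edgeR adjusted p = 0.0354). It was lost without any 1 of the 3 shUHRF1 or 3 shControl libraries (adjusted p = 0.0525 to 0.142), with no low-count filter (0.0636) and on the pairs numbered 1 and 3 (0.142). Of its exon length, 16.29% is shared with Adar on the opposite strand, which had 76.1 CPM in shUHRF1 and 70.5 CPM in shControl on average (log2 fold change 0.11 ± 0.11 SE, adjusted p = 0.504). Chrna4, the usual alpha partner of Chrnb2, rose to 11, 3.77 and 5.33 CPM in shUHRF1, against 2.44, 2.33 and 2.2 CPM in shControl (log2 fold change 1.54 ± 0.40 SE, edgeR adjusted p = 0.0272). Its shControl libraries were nearly equal, while shUHRF1 replicate 1 stood well above the other 2. Without that library the log2 fold change was 0.97 and passed (adjusted p = 0.0362), and without shUHRF1 replicate 3 or any 1 of the shControl libraries it did not pass (adjusted p = 0.0522 to 0.0967), nor with limma-voom (0.0509).

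Chrna7, which forms channels of 1 subunit type with high calcium permeability, had 22.5, 60.5 and 48.6 CPM in shUHRF1 and 57.6, 38.3 and 44.1 CPM in shControl (edgeR adjusted p = 0.874). Its spread within shUHRF1 exceeded the difference between the groups, and its sign changed with the scaling. Chrna6 had 1.53, 3.36 and 1.45 CPM in shUHRF1 and 1.22, 1.1 and 0.861 CPM in shControl, without overlap (adjusted p = 0.12). Of the muscle-type subunits, Chrna1 averaged 1.49 ± 0.247 CPM in shUHRF1 and 1.03 ± 0.313 CPM in shControl, and Chrnb1 averaged 5.27 ± 0.875 CPM in shUHRF1 and 3.67 ± 0.213 CPM in shControl (SD, n = 3 each; edgeR adjusted p = 0.29 and 0.119). The summed muscle markers were 21.4 to 56.9 CPM in shUHRF1 and 10.7 to 13.3 CPM in shControl, with Ttn at 50.5, 15 and 15.8 CPM in shUHRF1 and 2.15, 5.57 and 2.34 CPM in shControl. Of the 4 tested muscle markers Ttn alone was called, and the median log2 fold change was -0.49. Ttn was left out after its values were seen, which favoured lower sums in shUHRF1. Without it the sums were 6.47, 6.42 and 7.07 CPM in shUHRF1 and 8.53, 7.77 and 9.03 CPM in shControl. The part of muscle cells in the levels of Chrna1 and Chrnb1 was not tested. Chrnb3, a subunit that joins Chrna6, was at 0.414 CPM in shUHRF1 and 0.929 CPM in shControl on average (adjusted p = 0.224).

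The subunits of ganglionic nicotinic receptors, Chrna3, Chrna5 and Chrnb4, and both 5-HT3 genes varied mainly by library. Chrna3 had 11.5, 45.1 and 13 CPM in shUHRF1 libraries 1 to 3, against 16.8, 25.8 and 8.42 CPM in shControl libraries 1 to 3. Chrnb4 had 3.55, 20.7 and 8.09 CPM in shUHRF1 and 3.77, 7.25 and 2.25 CPM in shControl. Chrna5 had 2.38, 6.36 and 3.49 CPM in shUHRF1 and 1.68, 5.31 and 2.01 CPM in shControl. In both groups the library numbered 2 was the highest for all of these genes. Htr3a, the 5-HT3 subunit that can form channels alone, had 39, 232.1 and 103.9 CPM in shUHRF1 and 39.2, 62.6 and 60.1 CPM in shControl. Htr3b, which joins it, had 14.7, 76.1 and 45 CPM in shUHRF1 and 23.3, 39.5 and 28.3 CPM in shControl. Again replicate 2 was the highest of each group, and shUHRF1 replicate 1 was below every shControl library.

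None of these 5 genes passed the test. The edgeR adjusted p was 0.143 for Htr3a (log2 fold change 1.21 ± 0.54 SE), 0.447 for Htr3b, 0.618 for Chrna3, 0.579 for Chrna5 and 0.187 for Chrnb4 (1.29 ± 0.65 SE). Without shUHRF1 replicate 1, Htr3a and Htr3b had log2 fold changes of 1.63 and 0.99 and passed (adjusted p = 0.0139 and 0.0395). Without shUHRF1 replicate 2 they were 0.38 and -0.05 (adjusted p = 0.516 and 0.954), and those of Chrna3, Chrna5 and Chrnb4 were -0.49, -0.05 and 0.38. In the libraries numbered 2, more reads lay outside annotated genes than in the others, 17.18% in shUHRF1 and 14.13% in shControl, against 8.43% to 11.08% in the other 4. Whether this bears on these genes was not tested. The genes lie in pairs and triplets: Chrna5, Chrna3 and Chrnb4 on chromosome 9 with gaps of 2.3 and 1.6 kb, and Htr3a and Htr3b on the same chromosome 23.9 kb apart.

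**Figure D4:**
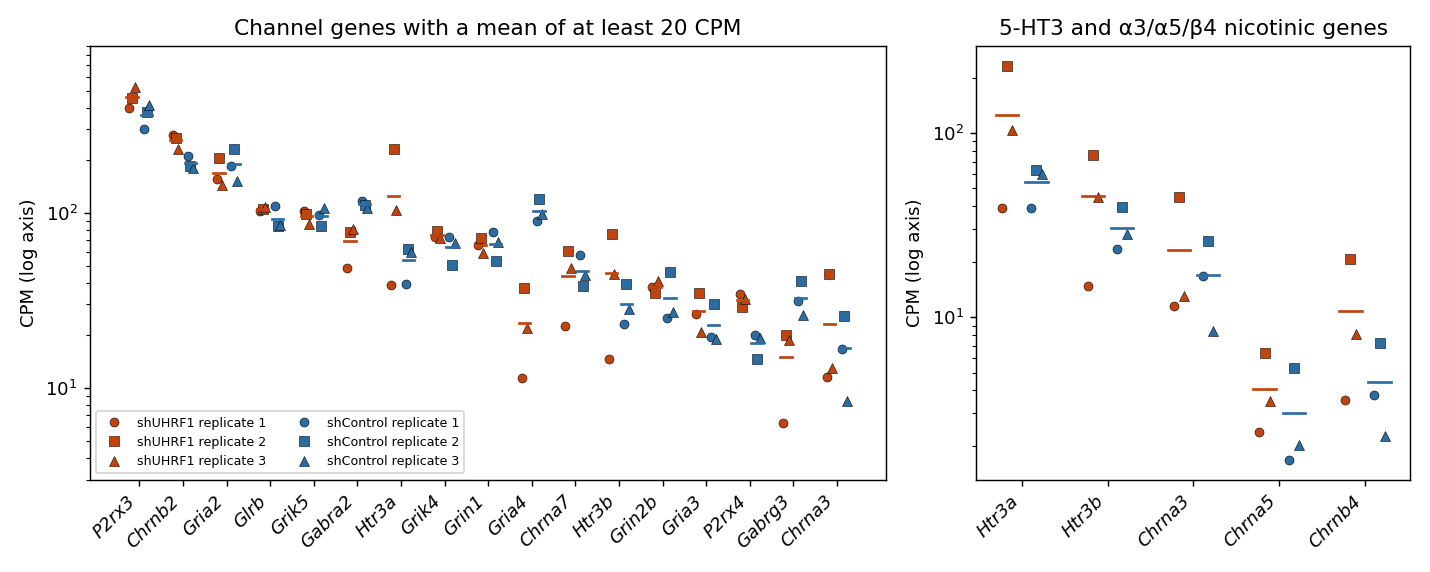
CPM (log axis) by library of channel genes averaging 20 CPM or more over all libraries (left) and of the 5-HT3 and ganglionic nicotinic genes (right); orange symbols are shUHRF1, blue symbols shControl, their shape gives the replicate number and the short lines the group means. On the right the square of each group, replicate 2, is the highest, reaching 232.1 CPM for Htr3a in shUHRF1 and 62.6 CPM in shControl.

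P2X receptors are cation channels opened by ATP. P2rx3, the nociceptor subunit (ENSMUSG00000027071.14, chromosome 2, 84998583 to 85037462, minus strand, GRCm38), was the most abundant channel gene per kilobase, at 164.8 ± 22.9 RPKM in shUHRF1 and 130.9 ± 20.6 RPKM in shControl (SD, n = 3 each). It had 400, 451.6 and 527 CPM in shUHRF1 and 302.7, 376.8 and 416 CPM in shControl. The groups overlapped, and the gene was not called (log2 fold change 0.33 ± 0.16 SE, edgeR adjusted p = 0.166). It made up 94.3% to 96.1% of the P2X sum in shUHRF1 and 95.7% to 97.3% in shControl. P2rx2, with which it forms joint receptors, had only 16, 5 and 16 reads in shUHRF1 and 7, 11 and 9 reads in shControl (adjusted p = 0.754).

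Both called P2X genes rose. P2rx4, a subunit also known from macrophages and microglia, rose to 34.3, 29.1 and 32.4 CPM in shUHRF1, against 20, 14.6 and 19.4 CPM in shControl (1.77-fold higher, log2 fold change 0.83 ± 0.16 SE, edgeR adjusted p = 0.00902). The groups stood apart with little spread in either. Macrophage markers summed to 18.8, 49.4 and 28.2 CPM in shUHRF1 libraries 1 to 3, against 14.2, 7.32 and 10.4 CPM in shControl libraries 1 to 3, and their part in the level of P2rx4 was not tested. The neighbouring gene P2rx7, a macrophage channel 16.1 kb away, had 6, 12 and 9 reads in shUHRF1 and 4, 2 and 4 reads in shControl and was under the filter. P2rx6, a subunit that forms few channels alone, rose to 6.2, 6.06 and 5.62 CPM in shUHRF1, against 1.86, 1.88 and 1.39 CPM in shControl. It had the smallest adjusted p of the channel genes (3.5-fold higher, log2 fold change 1.81 ± 0.23 SE, edgeR adjusted p = 0.002). Of its exon length 13.87% is shared with Slc7a4 on the opposite strand, which had 41 CPM in shUHRF1 and 34.5 CPM in shControl on average (log2 fold change 0.25 ± 0.13 SE, adjusted p = 0.188). The strand setting of the counting is not given in the sources used here, so reads of shared bases cannot be assigned. Among the other tested members, 13.47% of the exon length of Grin1 is shared in this way with Grin1os. P2rx5 had 4.4, 5.95 and 2.76 CPM in shUHRF1 and 3.08, 1.88 and 2.53 CPM in shControl (adjusted p = 0.124).

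GABA-A genes lie in clusters, and in each cluster described here some tested members were called and others were not. On chromosome 7, Gabra5 fell, while Gabrg3, 20.5 kb away, had a log2 fold change of -1.13 and was not called. On chromosome 5, Gabra2 fell, and Gabrb1 and Gabrg1 had log2 fold changes of 0.36 and -0.24 and were not called. Gria2 and Glrb lie 40.8 kb apart on chromosome 3 and were not called.

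The other 19 channel genes did not pass the filter, with 0 to 65 reads over the 6 libraries. Their reads were more numerous in shUHRF1 for 15, in shControl for 3 and equal for 1, Chrnd, which had 0 reads in all libraries. The same split was not counted over all genes under the filter, so it is only a description. The shUHRF1 libraries had reads in 25288 to 26115 genes, against 23310 to 24221 in shControl. With no low-count filter the median log2 fold change over all genes was 0.11. The 19 channel genes were Gabra4, Gabra6, Gabrp, Gabrq, Gabrr1, Gabrr2, Gabrr3, Grin2c, P2rx1, P2rx7, Glra1, Glra3, Glra4, Chrna2, Chrna9, Chrna10, Chrnd, Chrne and Chrng. They include the rho subunits known from retina, the cerebellar subunits Gabra6 and Grin2c, the hair cell subunits Chrna9 and Chrna10 and the muscle subunits Chrnd, Chrne and Chrng. Chrna2 stood out after its values were seen: it had 29, 8 and 12 reads in shUHRF1 and 0 reads in each shControl library. Against a floor of 3 reads over the shControl group its pooled level was at least 14.6-fold higher. In the fit with no low-count filter Chrna2 passed (edgeR adjusted p = 7.61e-05). Gabrr3 passed too (0.0382), with 22, 11 and 7 reads in shUHRF1 and 3, 4 and 1 in shControl. Grin2c did so (0.0481) with 10, 4 and 2 reads in shUHRF1 and 0, 1 and 0 in shControl. That fit called 4376 of 31421 genes, and its adjusted p cannot be set beside those of the main fit. For Gria4 it was 2.03e-07, against 0.00667 in the main fit. For Chrnb2 it was 0.0636, against 0.0354.

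The proteins that assemble, anchor or traffic these receptors were looked at as lists, described by counts alone, beside which stand the 11.6% of all tested genes that rose and the 12.4% that fell. Of 32 glutamate receptor partners, all tested, 7 rose and 10 fell, with a median log2 fold change of -0.19. Cnih3, an auxiliary AMPA subunit that slows channel closing, rose to 35.3, 35.1 and 42.1 CPM in shUHRF1, against 6.79, 5.89 and 4.45 CPM in shControl (log2 fold change 2.72 ± 0.19 SE, edgeR adjusted p = 0.000337). Dlgap3 and Shank3 encode scaffold proteins of the postsynapse. Dlgap3 fell to 9.92, 19.7 and 16.1 CPM in shUHRF1, against 85.1, 62.7 and 117.7 CPM in shControl (log2 fold change -2.54 ± 0.30 SE, adjusted p = 0.00169). Shank3 fell to 18.4, 24.5 and 23.3 CPM in shUHRF1, against 64.8, 50.5 and 82.1 CPM in shControl (-1.58 ± 0.20 SE, adjusted p = 0.00197). The groups were apart for all of these genes, which were taken for their small p in these same libraries. Nsf, an ATPase of vesicle fusion that also binds an AMPA subunit, fell to 179.2 ± 34.2 CPM in shUHRF1, against 383.1 ± 21.9 CPM in shControl (SD, n = 3 each; edgeR adjusted p = 0.00286).

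Of 14 partners of inhibitory receptors, all tested, 0 rose and 6 fell (11.6% and 12.4% over all tested genes), with a median log2 fold change of -0.32. Ubqln1, which stabilises GABA-A subunits, fell to 134 ± 13.6 CPM in shUHRF1, against 261.8 ± 10.2 CPM in shControl (SD, n = 3 each; edgeR adjusted p = 0.00163). Trak2, a trafficking adaptor, fell by 0.81 on the log2 scale (edgeR adjusted p = 0.00267). Nlgn2, the neuroligin of inhibitory synapses, fell by 0.84 (edgeR adjusted p = 0.0169), a call lost without shControl replicate 1 or 3 or shUHRF1 replicate 3 (adjusted p = 0.0602 to 0.0673). Of 11 tested nicotinic receptor partners 1 rose and 2 fell (11.6% and 12.4% over all tested genes), with a median log2 fold change of -0.33. Tmem35a, the assembly chaperone of neuronal nicotinic receptors, fell to 5.48, 7.42 and 5.13 CPM in shUHRF1, against 20.4, 17.6 and 22 CPM in shControl (log2 fold change -1.74 ± 0.19 SE, edgeR adjusted p = 0.00135). It thus moved opposite to Chrna4 and Chrnb2. Lypd1, a membrane protein that damps nicotinic responses, rose to 14.9, 11.8 and 8.43 CPM in shUHRF1, against 3.6, 3.11 and 2.01 CPM in shControl (2.02 ± 0.30 SE, adjusted p = 0.0036). Ly6e fell by 0.75 on the log2 scale (adjusted p = 0.0209; 0.0707 to 0.0784 without shControl replicate 1 or 3), and Lrp4 had 1.21 ± 0.40 SE (adjusted p = 0.0633).

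Of the metabotropic receptors of the same transmitters 26 of 36 were tested, and 6 rose and 8 fell (11.6% and 12.4% over all tested genes), with a median log2 fold change of -0.23. P2ry1, an ATP and ADP receptor coupled to G proteins, fell to 0.0449, 0.0589 and 0.436 CPM in shUHRF1, against 3.83, 5.7 and 4.4 CPM in shControl (log2 fold change -4.62 ± 0.63 SE, edgeR adjusted p = 0.00256), and the value ranged from -6.34 to -4.12 with 1 library left out. With so few reads in shUHRF1 the size of this fall is uncertain, and P2ry1 passed the filter through shControl. Chrm3, a muscarinic receptor, fell to 25, 63.9 and 44.3 CPM in shUHRF1, against 133.2, 180.2 and 170.2 CPM in shControl (-1.86 ± 0.31 SE, adjusted p = 0.00546). Each group kept to its own range for both, which were likewise taken for their small p. Grm4, a presynaptic glutamate receptor, fell to 6.18 ± 1.63 CPM in shUHRF1, against 24.6 ± 1.07 CPM in shControl (SD, n = 3 each; edgeR adjusted p = 0.00096). Htr2a, a serotonin receptor, rose to 3.26 ± 0.416 CPM in shUHRF1, against 0.321 ± 0.14 CPM in shControl (adjusted p = 0.00142). It was low in shControl and passed the filter through shUHRF1.

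Genes of transmitter synthesis, transport and chloride balance had 17 of 25 tested, with 5 higher and 1 lower (11.6% and 12.4% over all tested genes) and a median log2 fold change of 0.29. Slc17a6, the vesicular glutamate transporter of sensory neurons, rose to 1662.3, 892.5 and 1043 CPM in shUHRF1, against 551.7, 477 and 458.5 CPM in shControl (log2 fold change 1.27 ± 0.23 SE, edgeR adjusted p = 0.00722). The lowest shUHRF1 library exceeded the highest shControl library by a wide margin. Slc1a1 and Slc1a2, which take up glutamate and of which Slc1a2 is best known from glia, rose by log2 fold changes of 1.17 ± 0.18 and 1.82 ± 0.22 SE (adjusted p = 0.00386 and 0.00168). Slc12a2, the transporter that loads sensory neurons with chloride and so makes GABA depolarising, fell to 102.3, 94.1 and 96.4 CPM in shUHRF1, against 122.6, 130.2 and 134.2 CPM in shControl (log2 fold change -0.40 ± 0.10 SE, adjusted p = 0.0237). That call was lost without shUHRF1 replicate 3 or any 1 of the 3 shControl libraries (adjusted p = 0.0526 to 0.092).

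**Figure D5:**
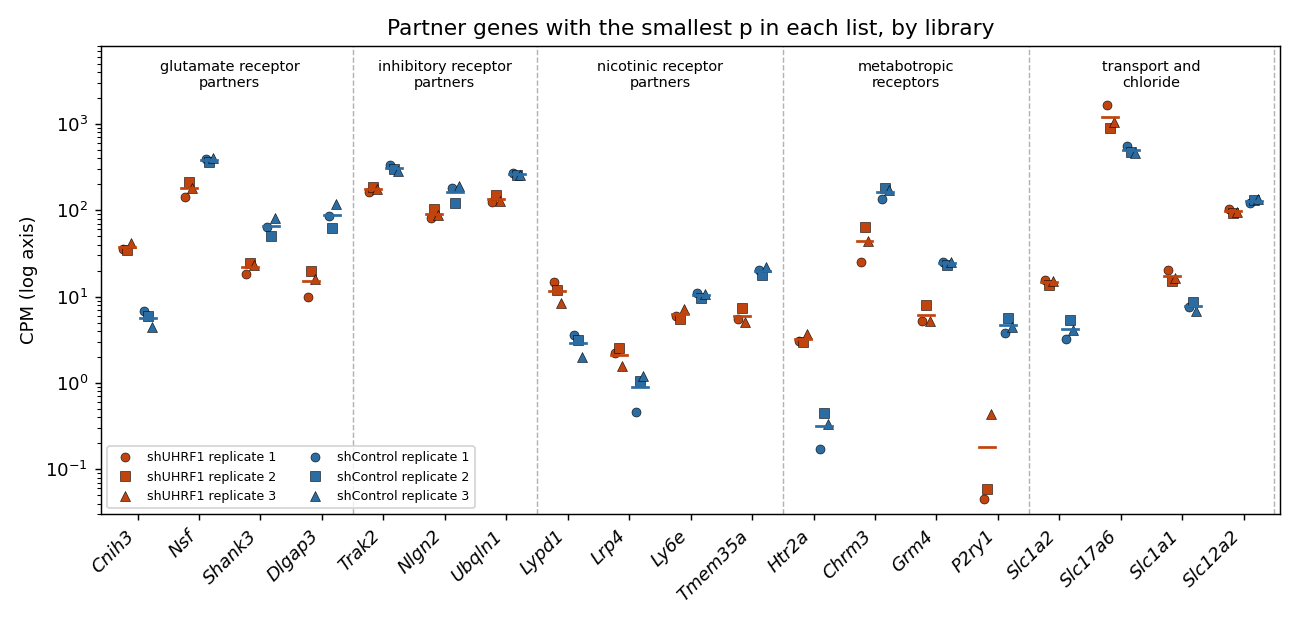
CPM (log axis) by library of genes with the smallest p in each list of receptor partners, metabotropic receptors and transporters; orange symbols are shUHRF1, blue symbols shControl, their shape gives the replicate number and the short lines the group means. Cnih3 and Slc17a6 lie higher in shUHRF1, and Dlgap3, Tmem35a and P2ry1 lower, with no overlap.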

How the data were processed

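RNA of 6 libraries was sequenced, 3 per group. Per the labels' protocols, ribosomal RNA was depleted and cDNA made with a SMARTer kit. The authors deposited raw read counts per Ensembl gene, 47643 identifiers and 5 summary lines per library; FastQC, STAR, HTSeq, DESeq2 and mm10 are named in the submitters' processing notes, without versions; which annotation release and strand setting were used is not given in these sources. Summary lines entered neither library sizes nor tests: 8.43% to 17.18% of entries were reads outside genes, 2.12% to 2.27% ambiguous and 30.5% to 37.28% not unique. Symbols, biotypes, coordinates and exon lengths came from GENCODE M21, on GRCm38 (mm10), with 47224 identifiers matched.

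From these deposited counts, edgeR 4.0.16 in R 4.3.3 was run with filterByExpr at default settings, TMM factors and the two-sided quasi-likelihood test without a block, adjusted over 15573 genes; an adjusted p below 0.05 was a call. CPM and RPKM used TMM-scaled library sizes, and SEs came from the F statistic. The script was tested on simulated counts. Channel genes, lists and alternatives were chosen with earlier results of these data known. Full values were given for called genes, for those averaging 20 CPM or more, for the top gene per kilobase of each family and for up to 4 genes with the smallest p per list; some of these genes are not reported here, and counts, sums and shares include them.

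Libraries of the same number deviated together from their group means (correlations 0.33, 0.36 and 0.44, and -0.27 to -0.04 for other pairs). Deviations cancel out within a group, so positive values for same-number pairs lower those of the other pairs, which are no separate evidence. For the alternatives that use pairs, the numbers were taken as pairs from the data, not the labels. The main test used no block. The replicate number as a block was 1 alternative; the others were DESeq2 1.42.0, limma-voom (limma 3.58.1), upper-quartile and RLE factors, fits on all genes without the low-count filter or on genes reaching 2 CPM in 3 libraries, the pairs numbered 1 and 3, and each library left out.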

Additional observations from a re-analysis of the deposited data

How the results depend on the processing

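The number of channel genes called higher was 7 and ranged from 5 to 9 over the alternatives except with no low-count filter, where it was 13: Chrna2, Gabrr3 and Grin2c, under the filter otherwise, and Chrnb4, Gria1, Grin2a and Htr3a (adjusted p = 0.0375, 0.032, 0.022 and 0.0111) gained the call and Chrnb2 lost it, the cause of which was not tested; with 1 library left out it ranged from 5 to 8. The number called lower was 6 and ranged from 4 to 8 under the other settings, and from 2 (without shControl replicate 3) to 6 with 1 library left out, being 3 without shControl replicate 1 or shUHRF1 replicate 3; the pairs numbered 1 and 3 gave 9 higher and 4 lower. Over all genes 3735 were called, with 1768 (without shControl replicate 3) to 3888 with 1 library left out. The replicate block, which pairs libraries of the same number, called 9 channel genes higher and 8 lower, and 4820 genes in all; it changed the call of Gria1, Grin2a, Grik3, Gabrg3 and Lrp4 and of no other gene described. The median log2 fold change over all genes was 0.142 with upper-quartile factors and 0.11 with no low-count filter, against 0.017. In these fits 9 channel genes rose and 4 fell, and 13 rose and 8 fell, in that order. Over all genes they called 3890 of 15573 and 4376 of 31421, a number not split by direction here.

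Of the log2 fold changes of channel genes under the alternatives, 554 kept direction and call, 34 lost the call, 26 gained it and 22 changed sign. The sign changed for 8 genes, none of them called: Chrna3 (-0.042 on the pairs numbered 1 and 3; -0.49 to 0.86 with 1 library left out), Chrna5 (-0.046 to 1.11 with 1 left out), Chrna7 (0.037 with upper-quartile factors; -0.42 to 0.22), Gabre (-0.22 on the pairs numbered 1 and 3; -0.10 to 1.15), Gabrg1 (-0.52 to 0.13), Grik5 (-0.034 with no low-count filter, -0.12 on those pairs; -0.10 to 0.072), Grin1 (0.11 with upper-quartile factors, 0.024 on genes reaching 2 CPM in 3 libraries; -0.18 to 0.081) and Htr3b (-0.047 to 0.99). The cause was not tested. Of the partner genes, 265 values kept direction and call, 12 lost the call and 2 gained it, and 0 changed sign. Depth limits the 19 channel genes under the filter, for which small differences were not detectable.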
